A study of Mus musculus with 4 samples.

Results

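The major histocompatibility complex (MHC) class I pathway was followed through 10 genes in single cells from the kidney glomeruli of young and aged mice. The genes were taken by their symbols from the gene list of the deposited matrices, which holds 52636 genes, and each symbol matched 1 gene. They are the classical heavy chains H2-K1 and H2-D1, the non-classical heavy chains H2-Q4, H2-Q6, H2-Q7 and H2-T23, the light chain B2m, the peptide transporter subunit Tap1, the immunoproteasome subunit Psmb8 and the regulator Nlrc5. Glomeruli were caught with magnetic beads perfused through the heart and digested to single cells, and 3' libraries with unique molecular identifiers (UMIs) were made from 2 young and 2 aged samples, all untreated. The labels give no strain, sex, age in months or number of mice, so p-values below measure the spread between libraries, which may be technical. Every library held UMIs of the Y-linked genes Ddx3y (3101 to 5863) and Uty (273 to 490), and only 1 to 8 of Xist. The MHC is highly polymorphic between strains, and reads of a strain unlike the reference may be counted less well.

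Class I molecules display peptides from inside the cell to cytotoxic T cells. A heavy chain needs β2-microglobulin, the product of B2m, to reach the surface. The peptides are cut by the proteasome, in which Psmb8 replaces a constitutive subunit, and are moved into the endoplasmic reticulum by the transporter to which Tap1 belongs. Nlrc5 is a transactivator of class I genes, and interferons and NF-κB signalling are known inducers of the pathway. H2-Q6 and H2-Q7 encode Qa-2 antigens, and H2-T23 encodes Qa-1, a ligand for an inhibitory receptor of natural killer cells.

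In GRCm38, 8 of the genes lie on chromosome 17. B2m lies on chromosome 2 at 122147686-122153083 and Nlrc5 on chromosome 8 at 94434356-94527272. H2-K1 spans 33996017-34000347 and H2-D1 spans 35262730-35267499 on chromosome 17. H2-Q4 (35379617-35385290), H2-Q6 (35424850-35430055) and H2-Q7 (35439155-35443773) follow each other on the forward strand, and H2-T23 lies at 36029773-36032855. Tap1 (34187553-34197225) and Psmb8 (34197721-34201454) are neighbours.

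The 250 bases before the RefSeq start (GRCm38.p6) of 5 of the genes are shown. These windows cover a classical heavy chain, the light chain and 3 neighbouring non-classical heavy chains with unlike exact matches to the motifs searched. Each is written 5′ to 3′ on the strand of its gene. The RefSeq table matched 9 of the 10 genes, all but Nlrc5. Capitals mark matches, on either strand, to the class I NF-κB palindrome GGGGATTCCC, the class I interferon response element AGTTTCACTTCT, the NF-κB motif GGGACTTTCC and the interferon-stimulated motif GAAANNGAAA. The windows lie at chr17:34000348-34000597 (reverse strand), chr17:35379367-35379616, chr17:35424600-35424849, chr17:35438905-35439154 and chr2:122147437-122147686 (forward strand), in the order shown.
H2-K1: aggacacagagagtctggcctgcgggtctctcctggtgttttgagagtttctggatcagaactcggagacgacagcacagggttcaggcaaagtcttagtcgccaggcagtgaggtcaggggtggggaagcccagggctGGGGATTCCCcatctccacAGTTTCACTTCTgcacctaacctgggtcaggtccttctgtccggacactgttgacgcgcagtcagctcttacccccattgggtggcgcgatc
H2-Q4: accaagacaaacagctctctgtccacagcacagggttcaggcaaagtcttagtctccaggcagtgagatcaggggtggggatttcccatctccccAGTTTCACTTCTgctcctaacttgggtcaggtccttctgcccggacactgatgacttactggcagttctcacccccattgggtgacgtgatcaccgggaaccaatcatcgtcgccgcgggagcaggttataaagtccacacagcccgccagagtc
H2-Q6: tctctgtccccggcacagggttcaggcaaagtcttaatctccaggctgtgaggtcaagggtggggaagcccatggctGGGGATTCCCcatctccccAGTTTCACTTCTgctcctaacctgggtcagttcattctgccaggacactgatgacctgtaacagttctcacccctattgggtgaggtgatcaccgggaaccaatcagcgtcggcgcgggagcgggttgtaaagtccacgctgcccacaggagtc
H2-Q7: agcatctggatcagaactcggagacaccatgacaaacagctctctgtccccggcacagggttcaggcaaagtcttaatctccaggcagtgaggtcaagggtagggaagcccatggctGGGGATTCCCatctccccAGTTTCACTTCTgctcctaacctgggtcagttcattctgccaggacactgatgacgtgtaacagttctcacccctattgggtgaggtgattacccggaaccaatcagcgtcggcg
B2m: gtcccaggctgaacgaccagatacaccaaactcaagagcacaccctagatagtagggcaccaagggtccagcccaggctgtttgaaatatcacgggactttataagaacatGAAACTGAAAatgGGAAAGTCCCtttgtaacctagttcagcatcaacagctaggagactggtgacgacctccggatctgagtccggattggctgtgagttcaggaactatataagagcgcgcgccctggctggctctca

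GGGGATTCCC was found before H2-K1, H2-D1, H2-Q6 and H2-Q7, against 0.0861% of the 32536 windows in the RefSeq table. AGTTTCACTTCT was found before these 4 genes and H2-Q4, against 0.0277% of windows. B2m had GGGACTTTCC (0.141% of windows) and GAAANNGAAA (2.98%), and of the longer motifs H2-T23 had GAAANNGAAA only. TGACG, the core of the cAMP response element, was present before H2-K1, H2-D1, H2-Q4, H2-Q7, B2m and Tap1, and in 17.9% of all windows. None of the 6 motifs was found in the Psmb8 window. That window (34197945-34198194) lies before a RefSeq start but within the gene span given above, so it may miss the promoter. The H2-D1 window (35262844-35263093) also lies within its gene span, and the H2-T23 window (36032702-36032951) partly does. These are matches of letters in 1 window per gene, with the letters of the longer motifs taken as they stand before H2-K1 and B2m, and binding was not measured. CCAAT, searched as well, was present before H2-K1, H2-D1, H2-Q4, H2-Q6, H2-Q7, H2-T23, B2m and Tap1, and in 33.8% of all windows.

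The libraries held 5532 to 10621 barcodes, of which 5035 to 9187 were kept as cells, with a median of 1258 to 3730 UMIs per cell. Cells were clustered without the class I genes and named from marker genes, so every class is called podocyte-like, endothelial-like and so on. Young replicate 2 stood apart. Its median depth was the lowest (1258 UMIs), and 57.2% of its cells stayed unnamed, mostly in clusters that mixed markers of 2 cell types, against 0.871% to 3.89% in the other libraries. Library pairs shared 9 to 31 cell barcodes. Counts were summed per class and library and are given as CPM, the UMIs of a gene per 1000000 UMIs of that class and library. Of the named classes, 8 had at least 20 cells in every library and were tested, among them podocyte-like cells (588 to 1771 cells per library), endothelial-like cells (1449 to 6031), mesangial-like cells (173 to 615) and parietal epithelial-like cells (28 to 77).

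The 10 genes had unlike distributions over the cell classes. H2-Q7 and H2-Q6 were highest in podocyte-like cells, the filtration epithelium, whereas B2m, Psmb8, Tap1 and Nlrc5 were low there. Of the tested classes, H2-K1 had its highest mean in T and NK-like cells, and H2-D1 and B2m were high in both these and monocyte and dendritic-like cells, whose libraries overlapped. Over the 6 pairs of the glomerular classes, 49 of 58 tests of a level between classes passed an adjusted p of 0.05 (edgeR quasi-likelihood test with library as a block). Of all genes, 82.1% passed between endothelial-like and podocyte-like cells, 74.8% between mesangial-like and podocyte-like cells and 62.6% between mesangial-like and endothelial-like cells. In the 3 pairs with parietal epithelial-like cells it was 41.2% (podocyte-like), 45.1% (endothelial-like) and 45.2% (mesangial-like). A passed test alone therefore says little here, and the sizes are given.

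**Figure D1:**
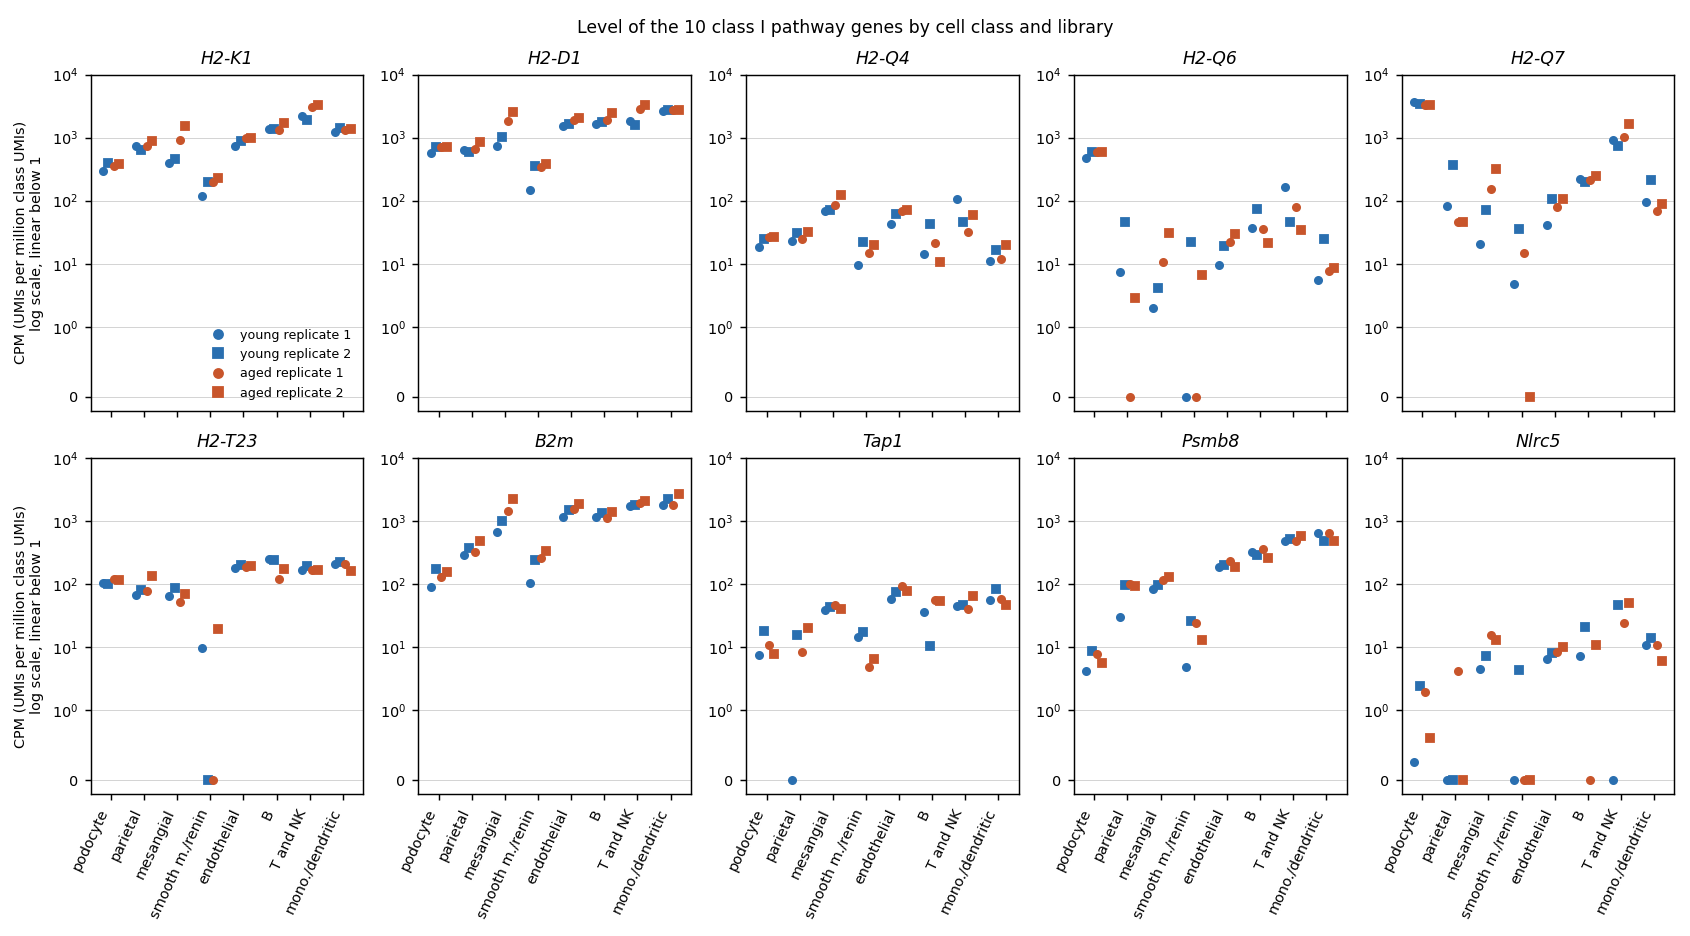
CPM of each of the 10 genes (one panel each; log axis, linear below 1) in the 8 tested classes, with 1 point per library (blue, young; orange, aged). H2-Q7 in podocyte-like cells lies between 3251 and 3616 CPM in all 4 libraries, and Psmb8 in the same cells between 4.24 and 8.83 CPM.

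H2-Q7 reached 3616 and 3413 CPM in podocyte-like cells of young replicates 1 and 2, and 3327 and 3251 CPM in aged replicates 1 and 2. All 4 libraries were above every library of every other tested class. The next class was T and NK-like cells with 1081 ± 408 CPM (mean ± SD, n = 4 libraries), followed by B cell-like cells with 219 ± 21.2 CPM. Mesangial-like, parietal epithelial-like, monocyte and dendritic-like and endothelial-like cells had means of 83.0 to 140 CPM, and neighbours in this order overlapped. Smooth muscle and renin-like cells were lowest, with 0 to 35.3 CPM. The log2 difference in level, endothelial-like minus podocyte-like cells, was −5.37 ± 0.13 (SE; adjusted p = 8.1e-20).

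H2-Q6 followed the same order at the top, with 471, 596, 585 and 589 CPM in podocyte-like cells of young replicates 1 and 2 and aged replicates 1 and 2. T and NK-like cells came next, with 34.5 to 165 CPM, and the 4 podocyte-like values lay above all of them. The log2 difference between endothelial-like and podocyte-like cells was −4.84 ± 0.08 (SE; adjusted p = 9.5e-23). H2-Q6 is the least certain of the counts. Of its 90-base stretches in the last 500 bases of the transcripts, 26.9% also occur in another gene, mainly H2-Q7 and H2-Q1, compared with 4.73% for H2-Q7. The share was 13.4% for H2-T23, 9.49% for H2-Q4, 0.151% for H2-K1 and 0 for the other genes.

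H2-Q4 did not share this order. Its mean was highest in mesangial-like cells (86.8 ± 24.3 CPM, n = 4). Endothelial-like cells (61.3 ± 12.6 CPM) and T and NK-like cells (60.7 ± 31.6 CPM) came next, and the libraries of these classes overlapped. Podocyte-like cells held 24.3 ± 3.87 CPM. H2-T23 was at similar levels in monocyte and dendritic-like, B cell-like, endothelial-like and T and NK-like cells, with means of 174 to 200 CPM and overlapping libraries. It was lower in podocyte-like cells (110 ± 8.29 CPM) and mesangial-like cells (68.2 ± 13.6 CPM).

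The classical heavy chains were present in every tested class. H2-K1 was highest in T and NK-like cells (2620 ± 664 CPM, n = 4), above B cell-like cells (1445 ± 166 CPM) and monocyte and dendritic-like cells (1339 ± 89.7 CPM), which overlapped. Endothelial-like (902 ± 128 CPM), mesangial-like (829 ± 523 CPM) and parietal epithelial-like cells (745 ± 97.4 CPM) overlapped one another in order. Podocyte-like cells (357 ± 45.5 CPM) stood below parietal epithelial-like cells, but their highest library (395 CPM) was above the lowest mesangial-like one (393 CPM). Smooth muscle and renin-like cells (187 ± 47.0 CPM) were lowest, apart from podocyte-like cells. The mesangial-like mean joins 429 CPM in the young and 1230 CPM in the aged libraries. Endothelial-like cells had 804 and 1000 CPM, and parietal epithelial-like cells 688 and 802 CPM, so the place of mesangial-like cells differed between the ages. For H2-D1 the class with the highest mean was not the same in the young and the aged libraries. Monocyte and dendritic-like cells had means of 2671 CPM in the young and 2738 CPM in the aged libraries. T and NK-like cells had 1689.5 and 3046 CPM, and B cell-like cells 1717 and 2203 CPM. The change with age in T and NK-like cells did not pass, and no class by age term was tested for them. Parietal epithelial-like cells (682 ± 124 CPM) and podocyte-like cells (676 ± 72.6 CPM) overlapped for H2-D1, and the fitted log2 difference, parietal epithelial-like minus podocyte-like, was −0.25 and did not pass (adjusted p = 0.0502). Its sign is opposite to that of the CPM means, which carry no TMM factors.

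B2m was at its lowest in podocyte-like cells, where it overlapped smooth muscle and renin-like cells. Its level was 88.7 and 177 CPM in young replicates 1 and 2 and 129.6 and 154 CPM in aged replicates 1 and 2. Endothelial-like cells held 1171 and 1489.55 CPM in the young and 1539.65 and 1871 CPM in the aged libraries, so the classes were far apart. The log2 difference, endothelial-like minus podocyte-like, was 3.56 ± 0.08 (SE; adjusted p = 8.2e-21). Psmb8 differed by more, at 5.07 ± 0.10 (adjusted p = 2.8e-21), with 6.62 ± 2.08 CPM in podocyte-like and 201 ± 20.0 CPM in endothelial-like cells. Tap1 (2.94 ± 0.11) and Nlrc5 (2.90 ± 0.32) were also higher in endothelial-like than in podocyte-like cells. Nlrc5 was sparse everywhere, with 2 to 11 UMIs per library in podocyte-like cells.

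Some RNA of other cells was counted in each class, and podocyte transcripts were abundant. The 10 podocyte markers together reached 3.42% to 5.44% of their podocyte-like level in endothelial-like cells, where H2-Q7 was at 1.16% to 3.25% of its podocyte-like level. In T and NK-like cells H2-Q7 was at 21.3% to 51.2% of the podocyte-like level while the podocyte markers were at 0.0332% to 0.555%. B cell-like cells had H2-Q7 at 5.86% to 7.67% and the markers at 0.265% to 0.542%. The part of podocyte RNA in the H2-Q6 and H2-Q7 counts of the endothelial-like and parietal epithelial-like classes was not tested.

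**Figure D2:**
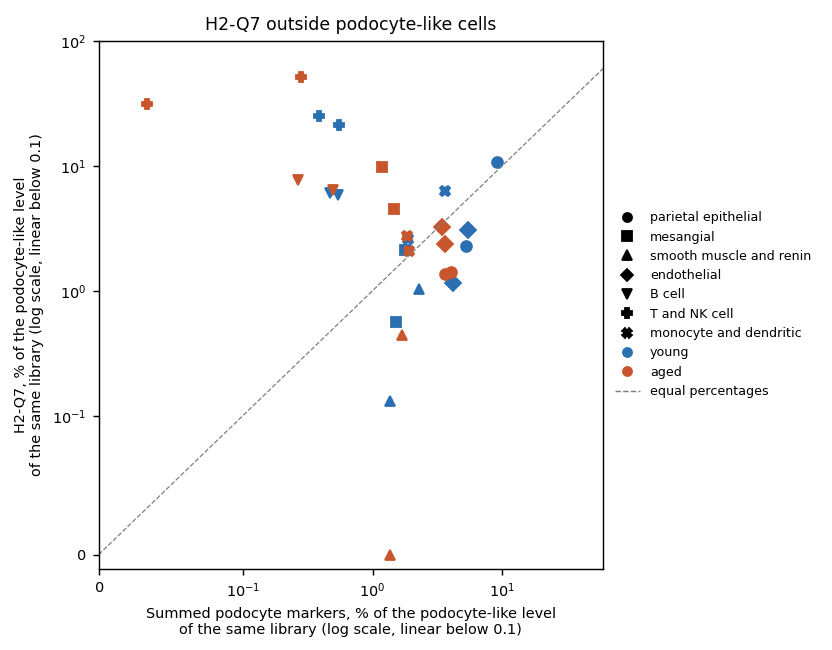
H2-Q7 (vertical) against the sum of 10 podocyte markers (horizontal), each as a percentage of the podocyte-like level of the same library, for 7 other classes; both axes are logarithmic above 0.1 and linear below. T and NK-like and B cell-like points lie above the dashed line of equal percentages in all 4 libraries, and endothelial-like points lie below it.

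As a description of co-variation, genes were ranked by Pearson correlation of log2(CPM + 1) with H2-K1, B2m and Psmb8 over 37 sums of a class in a library, among 8812 genes. The sums share libraries, and blood-derived classes make up many of them. Nearest to H2-K1 were H2-D1 (0.87), Psmb8 (0.87), Jpt1 (0.85), B2m (0.84) and Psmb9 (0.83). B2m was nearest to Psmb8 (0.94), Rap1b (0.91), H2-D1 (0.90), Il2rg (0.89) and Fermt3 (0.89). Psmb8 was nearest to B2m (0.94), Gch1 (0.90), AI662270 (0.90), Neurl3 (0.89) and Psmb9 (0.89).

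The question of age was asked within each class, aged against young, with edgeR's quasi-likelihood test on 2 sums per group and Benjamini-Hochberg adjustment over all genes of the class. In mesangial-like cells, the contractile cells that support the glomerular capillaries, H2-K1, H2-D1, B2m, H2-Q7 and H2-Q6 rose with age. That is 5 of 10 genes, all higher, against 4.95% of the 10475 genes tested in these cells (3.25% higher and 1.7% lower). The median log2 fold change of the 10 genes was 1.34, against −0.01 for all genes tested. For 8 of the 10 the aged libraries lay above both young ones, and for H2-T23 and Tap1 the groups overlapped, whereas 53.8% of all genes had groups that did not overlap.

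H2-K1 was at 393 and 465 CPM in mesangial-like cells of young replicates 1 and 2. It was at 932 and 1527 CPM in aged replicates 1 and 2. Both aged libraries were above both young ones, and the aged libraries differed more from each other than the young did. The log2 fold change was 1.62 ± 0.22 (SE), with an adjusted p of 0.0030. H2-D1 went from 737 and 1008 CPM in the young to 1847 and 2511 CPM in the aged libraries. Its log2 fold change was 1.43 ± 0.20 (adjusted p = 0.0042), again with no overlap.

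The light chain moved in the same direction. B2m was at 678 and 985 CPM in the young and 1432 and 2234 CPM in the aged libraries, with a log2 fold change of 1.25 ± 0.23 (adjusted p = 0.015). As for both heavy chains, aged replicate 2 was the highest library and young replicate 1 the lowest.

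H2-Q7 was at 20.3 and 72.4 CPM in the young and 151 and 316 CPM in the aged libraries of mesangial-like cells. The log2 fold change was 2.53 ± 0.46 (adjusted p = 0.013). H2-Q6 rested on few molecules, 3 and 4 UMIs in the young and 45 and 135 UMIs in the aged libraries. Its log2 fold change was 2.97 ± 0.68 (adjusted p = 0.036). Podocyte markers, the class in which both genes are abundant, were not higher with age in these cells. Their sum was at 1.53% and 1.78% of the podocyte-like level of the same library in young replicates 1 and 2, and at 1.46% and 1.19% in aged replicates 1 and 2, with none of 10 markers higher in both aged libraries and none at 0.

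The remaining genes did not pass in mesangial-like cells. Nlrc5 had 4.58 and 7.14 CPM in the young (7 UMIs in each) and 15.4 and 13.2 CPM in the aged libraries, a log2 fold change of 1.44 ± 0.38 with an adjusted p of 0.060. The log2 fold change was 0.67 ± 0.19 for H2-Q4 (adjusted p = 0.074) and for Psmb8 0.53 ± 0.16 (adjusted p = 0.087), with groups that did not overlap. Tap1 was at 38.6 and 43.8 CPM in the young and 46.3 and 40.0 CPM in the aged libraries (0.19 ± 0.20, adjusted p = 0.64). For H2-T23 the values were 65.4 and 85.6 CPM against 52.6 and 69.4 CPM, a log2 fold change of −0.18 ± 0.20 (adjusted p = 0.64).

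**Figure D3:**
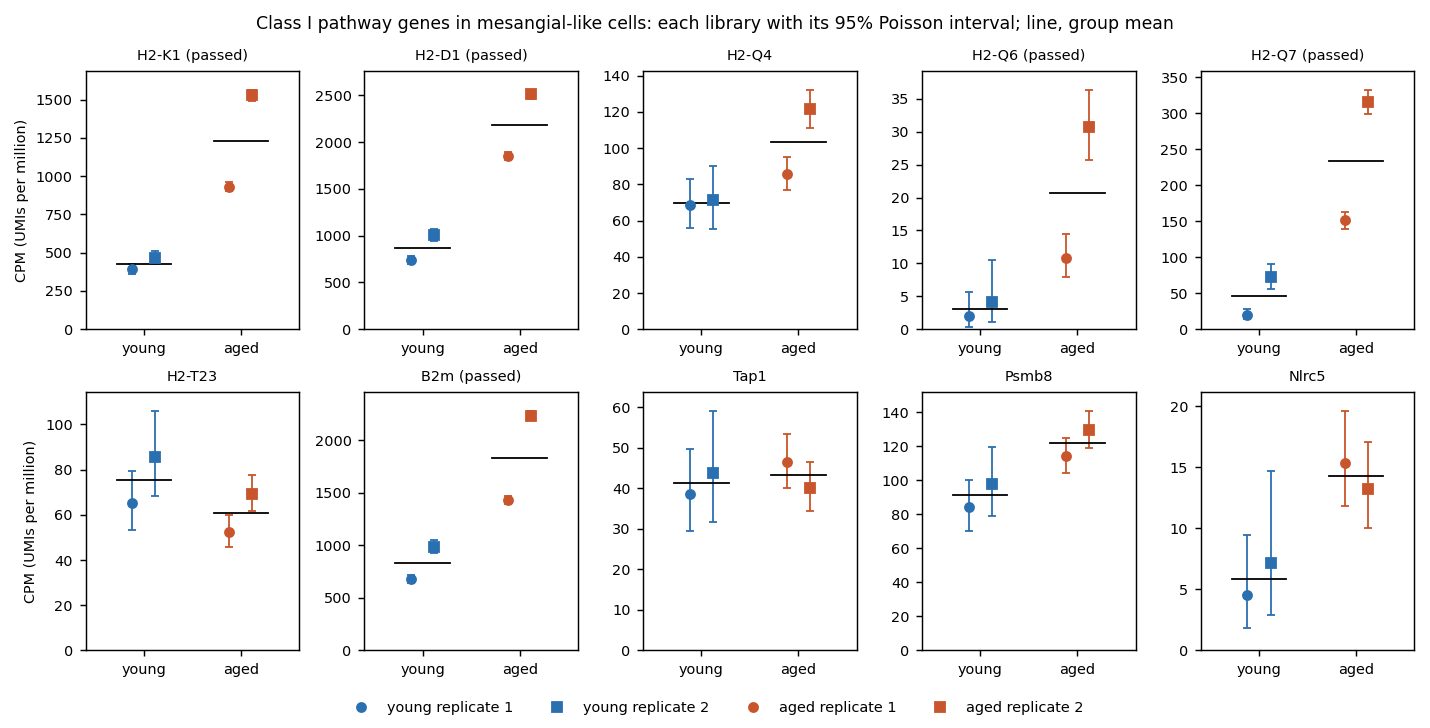
CPM of each gene in mesangial-like cells, 1 point per library with its 95% Poisson interval (counting error only) and a black line at the group mean; "passed" marks an adjusted p under 0.05. The aged libraries lie above both young ones for 8 genes, and the groups overlap for H2-T23 and Tap1.

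The mesangial-like result has limits. Without young replicate 1 no gene of the 10 passed, without young replicate 2 H2-Q7 alone did, and without aged replicate 1 there were 8. Calls over all genes moved the same way, with 40 of 11572, 73 of 11647 and 1148 of 9646 genes in these fits. The fits with 1 young library put the log2 fold change of H2-K1 at 1.51 and 1.74 (adjusted p = 0.16 and 0.080). When clusters left unnamed as mixtures were added to the class, a choice made after seeing the data, H2-Q7 had a change of 0.79 (adjusted p = 0.60) and H2-Q6 one of 0.084 (adjusted p = 0.97), and with DESeq2 the adjusted p of H2-Q7 was 0.14.

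Markers of other cells were looked at in the same sums. The 12 endothelial markers together were at 14.4% and 14.2% of the mean endothelial-like level in young replicates 1 and 2, and at 18.3% and 18.9% in aged replicates 1 and 2, with 7 of 12 higher in both aged libraries and none at 0. Eng (749 to 1166 CPM) and Plvap (479 to 744 CPM) made up most of this sum. Plvap was far lower in endothelial-like than in mesangial-like cells in every library, and its source in the mesangial-like sums was not tested. Ehd3 (287 to 483 CPM), Emcn (132 to 173 CPM) and Ptprb (114 to 161 CPM) were also present. Flt1 went from 18.96 and 36.7 CPM in the young to 92.9 and 96.02 CPM in the aged libraries. Pecam1 (18.4 to 43.9 CPM), Cdh5 (11.2 to 32.7 CPM) and Tie1 (3.06 to 9.36 CPM) were low. The 7 parietal epithelial markers stood at 9.72% and 11.6% of their own class in young replicates 1 and 2, against 20.3% and 25.2% in aged replicates 1 and 2, with 2 of 7 higher in both aged libraries and Pax8, Pax2 and Krt18 at 0. The 8 macrophage markers were at 2.77% and 3.003% in the young libraries, against 2.70% and 1.90% in the aged ones, with 3 of 8 higher in both aged libraries, and 6 of 7 T and NK markers were at 0. The part of other cells' RNA in the mesangial-like change was not tested.

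The share of mesangial-like cells with a H2-K1 UMI, after each cell was thinned to 1000 UMIs, was 33.0% (exact 95% interval 27.4% to 39.0%) and 31.4% (24.3% to 39.3%) in young replicates 1 and 2. In aged replicates 1 and 2 it was 55.7% (51.7% to 59.7%) and 76.1% (71.8% to 80.0%). The thinned share in podocyte-like cells, the class with less H2-K1, was 24.7% to 32.6% over the 4 libraries. Without thinning the mesangial-like shares were 77.9%, 75.7%, 89.6% and 97.8%, in the same order. A two-sided exact permutation test of 2 against 2 libraries cannot go below 0.33, and gave that value. Intervals cover counting error only.

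Cdkn2a encodes the cell cycle inhibitor p16, a marker of senescence, which the series set out to profile with age, and the mesangial-like cells were split by it. A Cdkn2a UMI was seen in 71 of 615 cells of aged replicate 1 and 66 of 445 of aged replicate 2, and in 1 cell of each young library. H2-K1 stood at 941 CPM in cells with and 930 CPM in cells without a Cdkn2a UMI in aged replicate 1, and at 1586 and 1507 CPM in aged replicate 2. B2m stood at 1430.25 and 1433 CPM in aged replicate 1 and at 2213 and 2242 CPM in aged replicate 2. For these 2 genes the difference between the libraries was larger than that across the split. H2-Q6, from few UMIs, was at 19.9 and 8.46 CPM in aged replicate 1 (17 and 28 UMIs) and at 28.7 and 31.4 CPM in aged replicate 2. Cells with a Cdkn2a UMI were deeper (medians of 8375 and 16428 UMIs, against 3905 and 5222), and a cell without such a UMI may still express the gene.

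Podocyte-like cells showed no gene of the 10 past the threshold, against 5.69% of the 10898 genes tested in them (3.78% higher and 1.91% lower). For 3 of the 10 the groups did not overlap, as for 45.9% of all genes. At an unadjusted p under 0.05 there was 1, H2-Q4, with 18.6 and 25.0 CPM in the young and 27.0 and 26.6 CPM in the aged libraries (log2 fold change 0.39 ± 0.18, adjusted p = 0.25). H2-Q7 was nearly level, with a log2 fold change of −0.04 and an approximate 95% interval of −0.33 to 0.25. For H2-K1 the interval was −0.12 to 0.43 around 0.16, and for B2m −0.18 to 0.56 around 0.19. DESeq2 also called 0 of the 10. Within podocyte-like clusters 2 and 9, 0 of 9 and 0 of 7 genes tested passed, against 6.69% and 1.61% of all genes. Without young replicate 2, 5 of the 10 passed, and so did 1100 of all 11369 genes, against 620 of 10898 with all libraries. That library had the highest H2-K1, H2-Q6 and B2m of the 4 in podocyte-like cells.

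The endothelial-like cells line the capillaries, and 3 of the 10 genes passed in them, all higher in aged. All 10 log2 fold changes were positive, with a median of 0.49 against −0.01 for all genes, and 6% of the 13178 genes tested passed (3.89% higher and 2.12% lower). For 7 of the 10 the groups did not overlap, as for 52.4% of all genes. H2-Q6 was at 9.59 and 19.1 CPM in the young and 22.4 and 29.2 CPM in the aged libraries, a log2 fold change of 1.04 ± 0.23 (adjusted p = 0.0091). H2-Q4 was at 43.2 and 62.4 CPM against 67.9 and 71.4 CPM, a change of 0.55 ± 0.15 (adjusted p = 0.039). For Tap1 the values were 58.8 and 73.8 CPM against 94.8 and 77.0 CPM, and the change was 0.51 ± 0.15 (adjusted p = 0.0496). Each aged library was above both young ones for these 3 genes, by a small margin over young replicate 2 in the case of Tap1.

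H2-K1 in endothelial-like cells, at 730 and 879 CPM in the young and 998 and 1002 CPM in the aged libraries, had a log2 fold change of 0.44 ± 0.16 that did not pass (adjusted p = 0.13). H2-D1 (0.42 ± 0.17, adjusted p = 0.18) and B2m (0.49 ± 0.18, adjusted p = 0.13) were similar in size. When either young library was left out none of the 10 passed, and no other gene in these cells did. Without the filter on low counts the count of 3 became 0, as did that of all 23440 genes, and without composition factors it was 1, with 920 of 13178 genes past the threshold. H2-Q6 passed in 14 of 17 alternatives, H2-Q4 in 10 of 17 (adjusted p = 0.088 with DESeq2) and Tap1 in 8 of 17 (0.10 with DESeq2).

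Markers of other cells in the endothelial-like sums stayed at low percentages of their own class, some higher in the aged libraries. The 9 mesangial markers were at 0.444% and 0.738% in young replicates 1 and 2, and at 1.01% and 1.097% in aged replicates 1 and 2, with 1 of 9 higher in both aged libraries. The 8 macrophage markers were at 0.0135% and 0.0495% in young replicates 1 and 2, against 0.0978% and 0.114% in aged replicates 1 and 2, with 5 of 8 higher. The 8 monocyte and dendritic markers lay between 4.61% and 8.12%, with none higher in both aged libraries and Flt3 and Cd209a at 0. The 10 podocyte markers were at 4.17% and 5.44% of the podocyte-like level of the same library in young replicates 1 and 2. In aged replicates 1 and 2 they were at 3.61% and 3.42%, with 1 of 10 higher in both aged libraries. H2-Q6 was at 2.04% and 3.20% of its podocyte-like level in the young and at 3.82% and 4.97% in the aged libraries. The part of other cells' RNA, podocyte RNA included, in the endothelial-like changes was not tested.

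Aged and young endothelial-like cells lay largely in different clusters. Cluster 0 held 209 and 131 cells of the young and 1482 and 1809 cells of the aged libraries, and cluster 1 held 1160 and 697 against 575 and 521. Within clusters 0 and 1 no gene of the 10 passed, against 2.03% and 2.94% of the genes tested there. In cluster 10, led by Tspan8, Thbs2 and Edn1, H2-K1 was higher with a log2 fold change of 0.65 ± 0.15 (adjusted p = 0.022; 2.87% of genes passed). In cluster 4, led by Esm1 and Fabp4, H2-Q4 was higher (1.11 ± 0.29, adjusted p = 0.041; 1.65% passed). Clusters 5 and 13 gave 0 of 9 and 0 of 8 genes tested, against 1.78% and 0.0206% of all genes. Cluster 7 held 68 and 20 cells of the young and 1524 and 122 cells of the aged libraries, so it came mostly from aged replicate 1. It was not tested, because young replicate 2 had 19 cells there once mixed cells were left out. The mesangial-like cells formed 1 cluster. Cells with both mesangial and endothelial markers lay in 2 unnamed clusters that were split by age and are not part of it. Cluster 8 held 151 and 1187 cells of young replicates 1 and 2 and 6 and 7 of the aged libraries, against 173 mesangial-like cells of young replicate 2. Only 3 and 1 cells of the young libraries were in cluster 21, against 47 and 89 of the aged. H2-K1 was at 555 and 662 CPM in the young cells of cluster 8 and at 907 and 1436 CPM in the aged cells of cluster 21, and H2-Q7 at 36.5 and 443 CPM and at 978 and 641 CPM.

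**Figure D4:**
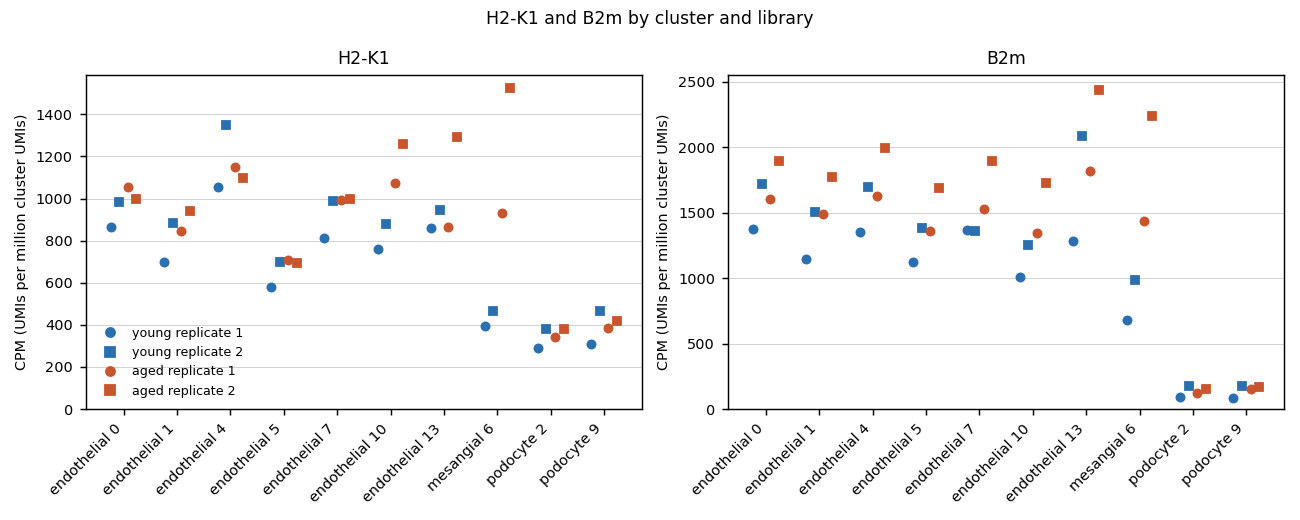
CPM of H2-K1 (left) and B2m (right) in each numbered cluster of the endothelial-like, mesangial-like and podocyte-like classes, 1 point per library. In mesangial-like cluster 6 H2-K1 is at 393 and 465 CPM in the young and 932 and 1527 CPM in the aged libraries, while in endothelial-like cluster 5 all 4 libraries lie between 579 and 709 CPM.

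Parietal epithelial-like cells, named for the cells that line Bowman's capsule, had 6 of the 10 genes above the filter on low counts. H2-Q7 fell by 2.37 on the log2 scale (± 0.45 SE, adjusted p = 0.0050), 1 of 6 genes against 3.91% of 4039 genes (2.08% higher and 1.83% lower). For 2 of the 6 the groups did not overlap, as for 46.4% of all genes. The values were 82.7 and 363 CPM in the young and 45.3 and 45.9 CPM in the aged libraries, from 11 to 71 UMIs. Young replicate 2 was far above the other 3, and without it the change was −0.84 with an adjusted p of 0.57. Podocyte markers were also highest in that library, at 9.15% of the podocyte-like level of the same library, against 5.25% in young replicate 1, 3.60% in aged replicate 1 and 4.03% in aged replicate 2. Their part in the result was not tested. The call was also lost without aged replicate 2 (adjusted p = 0.52) and in 3 other settings given at the end, and in thinned cells the gene did not reach the filter on low counts. At a pseudocount of 20 the 10 leading genes of this cluster held a smooth muscle marker, Tagln, and no parietal epithelial marker, and at a pseudocount of 1 they held 1 own marker. The 7 smooth muscle and renin markers summed to 2128 to 3432 CPM in this class, 6.59% to 10.6% of their own class. Its own 7 markers summed to a mean of 1996 CPM, so the name is uncertain. H2-K1, H2-D1, H2-T23, B2m and Psmb8 had log2 fold changes of 0.24 to 0.52 that did not pass.

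**Figure D5:**
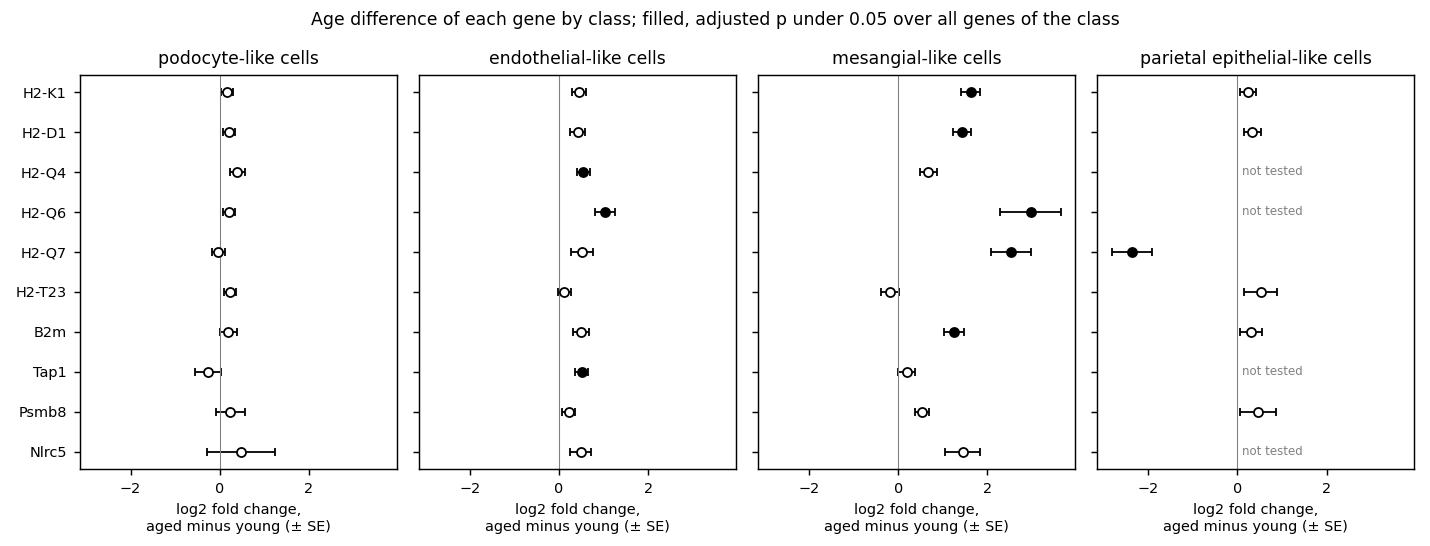
Log2 fold change of each gene, aged minus young, with its standard error in 4 glomerular classes; filled points passed an adjusted p of 0.05 over all genes of the class. In mesangial-like cells 5 points are filled and lie between 1.25 and 2.97, in endothelial-like cells 3 are filled between 0.51 and 1.04, in parietal epithelial-like cells H2-Q7 is filled at −2.37, and in podocyte-like cells none is.

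The differences between classes were tested directly, with a class by age term and library as a block. Of 51 tests of a gene in a pair of classes with over 3 UMIs in each class and age, 15 passed. The change of H2-K1 in mesangial-like cells was larger than in podocyte-like cells by a log2 difference of 1.42 ± 0.18 (adjusted p = 8.5e-08). It exceeded that in endothelial-like cells by 1.20 ± 0.19 (adjusted p = 0.00053). Between mesangial-like and podocyte-like cells 5 of 10 genes passed, against 4.29% of all genes. Between mesangial-like and endothelial-like cells 4 of 10 passed, H2-K1, H2-D1, H2-Q7 and B2m, against 2.71%. For B2m the excess over endothelial-like cells was 0.81 ± 0.17 (adjusted p = 0.0086). The difference for H2-K1 between endothelial-like and podocyte-like cells, 0.30 ± 0.11, did not pass (adjusted p = 0.11; 5.89% of all genes passed). H2-Q6 alone of the 10 passed in that pair. In the pairs of parietal epithelial-like cells with podocyte-like, endothelial-like and mesangial-like cells, H2-Q7 passed in each, and H2-K1 and H2-D1 in the pair with mesangial-like cells. The shares of all genes were 1.69%, 0.954% and 0.722% there.

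No gene of the 10 passed in the other tested classes. In T and NK-like cells (29 to 82 cells per library), H2-D1 was at 1801 and 1578 CPM in the young and 2817 and 3275 CPM in the aged libraries. The log2 fold change was 0.81 ± 0.24, with an unadjusted p of 0.0064 and an adjusted p of 0.33, and 0.0606% of the 1649 genes tested passed. For 4 of the 6 genes tested the groups did not overlap, against 37.1% of all genes. H2-K1 (0.59) and H2-Q7 (0.697) also had unadjusted p-values under 0.05 in these cells. In B cell-like cells H2-T23 was at 246 and 242 CPM in the young and 120 and 173 CPM in the aged libraries (log2 fold change −0.84 ± 0.34, adjusted p = 0.28; 0% of 1744 genes passed). It was the 1 gene of 6 tested with an unadjusted p under 0.05 there, and 2 of the 6 had groups that did not overlap, against 40.5% of all genes. Monocyte and dendritic-like cells had H2-Q7 at 93.6 and 213 CPM against 68.8 and 88.3 CPM (−0.93 ± 0.30, adjusted p = 0.23; 0.981% of 6626 genes passed), and the other 7 genes tested had unadjusted p-values over 0.05. Groups did not overlap for 2 of these 8 genes and for 41.3% of all genes. In smooth muscle and renin-like cells 3 genes were tested, and B2m, at 105 and 238 CPM against 260 and 332 CPM, had a change of 0.79 ± 0.30 (unadjusted p = 0.017, adjusted p = 0.23; of 3426 genes 2.19% passed, 1.37% higher and 0.817% lower). Groups did not overlap for 2 of the 3 and for 43.8% of all genes.

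Macrophage-like cells were too few in the young libraries (3 and 10 cells) to be tested. In the aged libraries (552 and 483 cells) H2-K1 was at 1314 CPM (95% Poisson interval 1276 to 1353) and 1251 CPM (1219 to 1283). B2m was at 2125 and 2219 CPM and Psmb8 at 489 and 378 CPM, while H2-Q7 was low at 27.8 and 24.9 CPM.

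Other genes of the pathway were taken from 4 lists. Of all genes tested, 4.95% passed in mesangial-like, 6% in endothelial-like, 5.69% in podocyte-like and 3.91% in parietal epithelial-like cells. Among 15 further antigen processing genes, such as Tap2, Tapbp, Psmb9 and Psmb10, none passed in mesangial-like, endothelial-like or podocyte-like cells. In mesangial-like cells 13 of the 15 had a positive log2 fold change, with a median of 0.28. In parietal epithelial-like cells 1 of 13 passed, the chaperone gene Hspa5 (1.09 ± 0.22, adjusted p = 0.0065). Of 11 other class I and class I-like heavy chains, 6 could be tested in mesangial-like and 8 in endothelial-like cells, and none passed.

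Of 18 regulators, 1 was higher and 1 lower in mesangial-like cells, against 3.25% higher and 1.7% lower among all genes. Calls this few are not read as a result about the regulators. Nfkb1, which encodes an NF-κB subunit, was higher, with a log2 fold change of 1.67 ± 0.16 (adjusted p = 0.00052). The interferon-regulated transcription factor gene Irf1 was lower, with a log2 fold change of −0.86 ± 0.18 (adjusted p = 0.028). Irf1 was also lower in parietal epithelial-like cells (−1.57 ± 0.24, adjusted p = 0.00063), 1 of 8 regulators tested there, against 1.83% of all genes. In endothelial-like cells the kinase gene Jak2 was higher (0.89 ± 0.17, adjusted p = 0.0033), 1 of 18, against 3.89% of all genes. In podocyte-like cells Rela, another NF-κB subunit gene, was higher (0.52 ± 0.14, adjusted p = 0.026). Socs1, an inhibitor of cytokine signalling, was lower there (−1.49 ± 0.23, adjusted p = 7.8e-05). That is 1 of 18 in each direction, against 3.78% higher and 1.91% lower among all genes.

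Among 21 interferon-induced genes outside the pathway, 3 of 20 tested were higher in mesangial-like cells, against 3.25% of all genes. The median log2 fold change over the list was 0.22. The 3 genes were Cd274, which encodes the immune checkpoint ligand PD-L1 (2.65 ± 0.40, adjusted p = 0.0055), Gbp2 (1.32 ± 0.20, adjusted p = 0.0055) and Bst2 (0.91 ± 0.22, adjusted p = 0.042). In endothelial-like cells 4 of 21 were higher, against 3.89% of all genes. The 3 of smallest p were Gbp2 (1.40 ± 0.15, adjusted p = 1.8e-05), Cd274 (0.85 ± 0.19, adjusted p = 0.012) and Cxcl10 (0.68 ± 0.19, adjusted p = 0.044). In podocyte-like cells 3 of 16 were higher, against 3.78% of all genes. These were Ifit3 (0.86 ± 0.20, adjusted p = 0.0063), Gbp2 (0.97 ± 0.23, adjusted p = 0.0098) and Bst2 (0.62 ± 0.18, adjusted p = 0.043). No gene of this list was lower in these 3 classes.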

How the data were processed

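The deposited files hold raw UMI counts per gene and cell barcode, 1 matrix per library, which were checked to be whole numbers, with a lowest barcode total of 500. Per the labels' protocols, libraries were made with the Chromium 3' kit v3.1 and reads were processed with Cell Ranger 3.1.0 against GRCm38; the file headers and the submitters' processing notes name Cell Ranger 6.0.1, and the notes also Partek. The sources do not say which of these produced the matrices, and how it treats reads that fit several genes bears on the H2-Q genes.

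Barcodes with at least 500 genes and at most 20% mitochondrial UMIs were kept, and the highest Scrublet scores were removed at 0.8% per 1000 barcodes (1876 barcodes, 6.28%), which left 28000 cells. Clustering (scanpy 1.11.5, leidenalg 0.10.2, 2000 variable genes, 30 components, 15 neighbours, resolution 1) left out the class I and antigen processing genes and gave 24 clusters, of which 19 were named. Naming required 3 detected markers and a marker level of 0.35 relative to the best cluster, and no name was given where another lineage came to 0.25; single cells past that level with 3 UMIs were left out too. These limits were chosen with the clusters in view. Libraries were not integrated.

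Counts were summed per class and library where each library had at least 20 cells. edgeR 4.0.16 (R 4.3.3) fitted its quasi-likelihood model with TMM factors and filterByExpr, with Benjamini-Hochberg adjustment over all genes and a threshold of 0.05; the test was checked on simulated counts. CPM are UMIs per 1000000 without TMM factors, so a fold change can differ from their ratio by the TMM factors. Intervals of single CPM are exact 95% Poisson intervals. Standard errors were derived from the F statistic of each edgeR test. The 95% intervals of log2 fold changes are normal approximations, which can be too narrow with 2 libraries per group. DESeq2 1.42.0, other scalings, filters, depths, clusterings and left-out libraries were alternatives. The members and gene lists were chosen with earlier results of these data known. Genes outside the 10 are named as the up to 3 of smallest p per list, class and direction. Promoter windows come from RefSeq (GRCm38.p6) and gene positions from GENCODE for GRCm38.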

Additional observations from a re-analysis of the deposited data

Results flagged for a closer look

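In 15 tests the age difference of a gene was not the same in 2 classes (edgeR, class by age term, adjusted p under 0.05). Values are differences of log2 fold changes (aged minus young). Mesangial-like minus podocyte-like cells gave 1.42 for H2-K1, 1.22 for H2-D1, 2.71 for H2-Q6 (2.705 before rounding, with 7 UMIs in the young mesangial-like cells), 2.54 for H2-Q7 and 1.00 for B2m (0.9996). Mesangial-like minus endothelial-like cells gave 1.20 for H2-K1, 1.06 for H2-D1, 2.03 for H2-Q7 and 0.81 for B2m. Endothelial-like minus podocyte-like cells gave 0.86 for H2-Q6. Parietal epithelial-like cells differed for H2-Q7 from podocyte-like (−2.22), endothelial-like (−2.69) and mesangial-like cells (−4.65), and from mesangial-like cells for H2-K1 (−1.30) and H2-D1 (−1.03). H2-Q7 in parietal epithelial-like cells was at 363 CPM in young replicate 2 and 82.7 CPM in young replicate 1, and these tests were not repeated without either library. Another 3 tests that passed, all for H2-Q6 in parietal epithelial-like cells, are not given because the aged libraries held 1 UMI together.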

How the results depend on the processing

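H2-K1, H2-D1 and B2m in mesangial-like cells passed in 15 of 17 alternatives each, with log2 fold changes of 1.27 to 1.92, 1.20 to 1.66 and 0.93 to 1.53 over all of them, and missed the threshold when either young library was left out. H2-Q7 passed in 11 of 17. H2-Q6 passed in 10 of 16, and turned to −0.030 (adjusted p = 0.99) with the class I genes used in clustering and mixed clusters joined. The cause was not tested. The number of genes past the threshold was 8 without a filter on low counts and 8 with a replicate block in mesangial-like cells, and 0 to 8 over the left-out libraries (0 without young replicate 1, 1 without young replicate 2). In endothelial-like cells (3 genes) it was 1 with no composition factor, where the median of all genes stood at −0.13 instead of −0.01, 0 without the filter, 6 with the replicate block, 0 to 2 over the left-out libraries, 1 within each of clusters 4 and 10, and 0 within each of clusters 0, 1, 5 and 13. In podocyte-like cells (0 genes) it was 0 to 5 over the left-out libraries, with 5 without young replicate 2 and 0 in every other alternative. In parietal epithelial-like cells (1 gene) it was 0 at a limit of 10% mitochondrial UMIs, without doublet removal, in cells thinned to 1000 UMIs and at resolution 0.5, and 0 to 1 over the left-out libraries (0 without young replicate 2 or aged replicate 2). A fit that leaves 1 library in a group assumes that it varies like the other group.

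The replicate numbers were not taken as pairs: same-numbered libraries deviated together with correlations of 0.0725, 0.0780, 0.0107 and −0.0112 in podocyte-like, endothelial-like, mesangial-like and parietal epithelial-like cells. Of these 4 classes, the replicate block left the count as it was in podocyte-like and parietal epithelial-like cells; it was not run in the other classes.

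Without doublet removal, with the class I genes in clustering, or at resolution 0.5, the mesangial-like cluster counted as a mixture with endothelial markers, so these alternatives could not be run for it alone. They were run with the mixed clusters joined, chosen after seeing the data, and gave 5 genes each. H2-K1, H2-D1 and B2m were among the 5 in each of them, whereas H2-Q7 and H2-Q6 did not pass. Differences between classes, in level or in age effect, were computed in the reported setting alone. Depth limits genes with few UMIs, such as H2-Q6 (3 and 4) and Nlrc5 (7 and 7) in the young mesangial-like cells.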
